A study of Cicer arietinum with 12 samples.

Results

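Calmodulin, calcium-dependent protein kinases and 14-3-3 proteins are steps of calcium signalling in plant leaves, and 5 genes of these families were followed here through drought in chickpea (Cicer arietinum). They are the 5 of 27234 counted features whose identifiers in the count files are CAM, CDPK1, CDPK2, '14-3-3' and '1433'. All 5 carried enough reads to be tested, among 18750 genes that passed the filter on low counts. RNA had been sequenced from leaves of ICC8261, labelled drought tolerant, and of ICC283, labelled drought sensitive, grown in a glasshouse in pots. The groups were ICC8261 under drought (DS, soil at 20% of field capacity), ICC8261 well-watered (WW, 80%), ICC283 under drought (20%) and ICC283 well-watered (80%), with 3 libraries each. The labels give no age, and name both leaf tissue and a shoot apical meristem stage. No leaf, meristem, root or nodule symbol on the marker lists matched a gene name used here, so the tissue was not checked.

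The treatment of 4 of the 12 libraries differs between 2 deposited sources. The reads of the library filed as ICC283 well-watered 3 stand in a drought column of the submitters' DESeq2 table, and those of ICC283 drought 3 stand in a well-watered column. ICC8261 well-watered 1 and ICC8261 drought 2 were exchanged in the same manner. Which source is right was not tested, and the calls under each set of labels are given below. The main tests therefore used the 8 libraries, 2 per group, on which the sources agree, and fits of all 12 under each set of labels are given as alternatives. For the 5 genes, the values of the 4 others are given beside their treatment in the table. The libraries held 8910704 to 12192098 reads counted in genes, and the 5 genes drew 596 to 3090 reads each per library. Whether each library is a separate plant is not stated in the labels, and a p-value here therefore refers to the spread from library to library. In leaf RNA, fewer cells of a type and less RNA per cell cannot be told apart.

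As background, stress raises free calcium in plant cells, and sensor proteins pass that signal on. Calmodulin, the product of CAM, binds calcium through EF hands and then docks on enzymes, channels and transcription factors. Calcium-dependent protein kinases, the family of CDPK1 and CDPK2, join a calmodulin-like sensor and a serine/threonine kinase in 1 chain and so need no separate sensor. 14-3-3 proteins bind phosphorylated serine or threonine in client proteins, in plants among them the plasma membrane proton pump and nitrate reductase. In other plants, calcium-dependent kinases phosphorylate sites that 14-3-3 proteins then bind. CAM, CDPK1 and CDPK2 have entries of the same symbol in the RefSeq chickpea gene table (Cicar.CDCFrontier_v2.0). The identifiers '14-3-3' and '1433' did not match that table, and which family members they are is not given in the sources used here. Calmodulin and 14-3-3 genes have close copies in plant genomes, and reads shared by copies would not be counted by a unique-alignment counter, so the levels of these genes are uncertain to that extent.

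**Figure D1:**
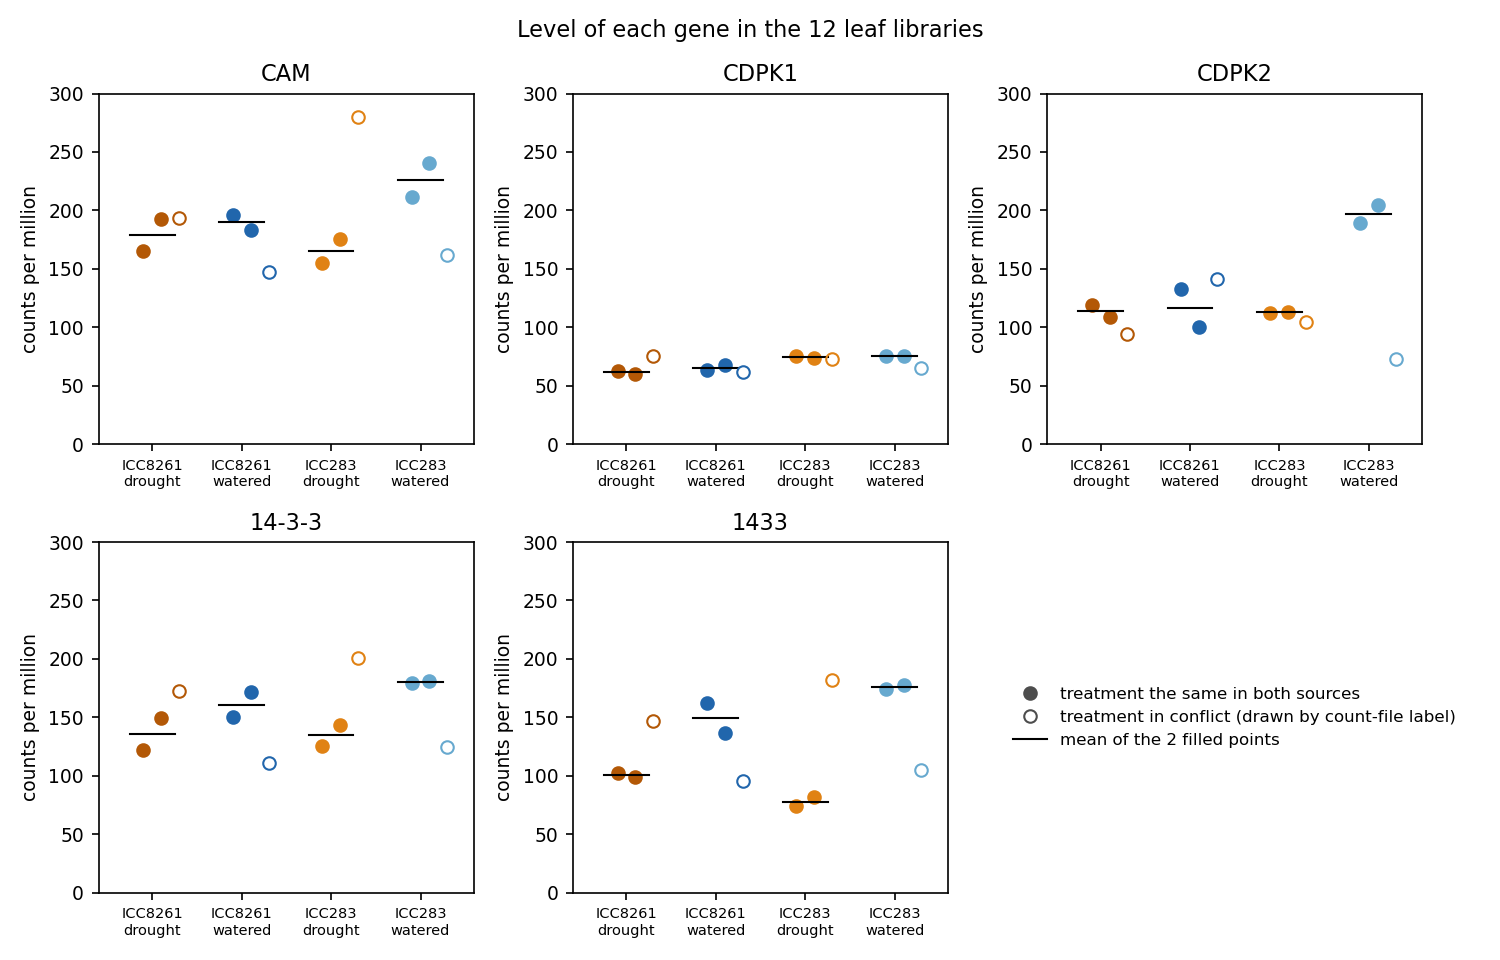
Level of each gene in CPM (counts per 1000000 reads in genes; vertical axes, 0 to 300) in the 12 libraries, by group along the horizontal axes. Filled points are the 8 libraries whose treatment agrees between the sources, bars are their means (n = 2), and open points are the 4 libraries in conflict, drawn under the count-file label. CDPK1 stayed between 60.4 and 75.8 in all 12, while the filled points of CDPK2 and '1433' in well-watered ICC283 lay above those of every other group.

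Across the 12 libraries, CDPK2 varied most and CDPK1 least. Levels are given as counts per 1000000 reads in genes (CPM), scaled between libraries by TMM. CDPK2 ran between 72.9 and 204 CPM, a span of 2.80-fold, and '1433' between 74.6 and 182 CPM, a span of 2.44-fold. CAM spanned 147 to 280 CPM (1.90-fold), 14-3-3 spanned 111 to 201 CPM (1.82-fold) and CDPK1 spanned 60.4 to 75.8 CPM (1.25-fold). CPM is not corrected for gene length, so levels are compared between libraries and not between genes. In the 8 agreed libraries, well-watered ICC283 had the highest mean of every one of the 5 genes. The next group down differed from it without overlap of libraries for all 5. For CDPK1 that next group was ICC283 under drought, at 74.4 CPM against 75.8 CPM, and both ICC8261 groups lay lower. How many of all genes tested share this order or this separation was not counted, so neither is read as a trait of these 5. For CAM, the ICC8261 drought, ICC8261 well-watered and ICC283 drought libraries overlapped from neighbour to neighbour, and so did these 3 groups for CDPK2. For 14-3-3 the 2 drought groups overlapped, and for '1433' the libraries of no neighbouring groups did.

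Drought in ICC283 was accompanied by lower levels of 4 of the 5 genes: both 14-3-3 identifiers, CAM and CDPK2. CDPK1 alone did not pass the test. At an adjusted p below 0.05 (edgeR quasi-likelihood test, Benjamini-Hochberg over all genes tested), 38.2% of all genes tested were called in this comparison, 21.1% of all genes lower and 17.1% higher. The median log2 fold change of the 5 was -0.47, against -0.03 over all genes tested. Because calls are frequent in this genotype, the count of 4 is read against those shares.

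CAM, the calmodulin gene, measured 155 and 175 CPM in ICC283 drought libraries 1 and 2, against 211 and 241 CPM in well-watered libraries 1 and 2. The groups did not overlap, and CAM fell by 0.47 ± 0.14 on the log2 scale (SE, n = 2 libraries each, adjusted p = 0.0215). Of the libraries in conflict, the one tabled as drought had 162 CPM, inside the drought range, and the one tabled as well-watered had 280 CPM, above the well-watered range. Under the table's labels drought and well-watered libraries were therefore still apart, and under the count-file labels they overlapped. The call was lost without drought library 1 (adjusted p = 0.159), well-watered library 2 (0.104) or drought library 2 (0.05001).

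CDPK2, a calcium-dependent kinase gene, measured 113 CPM in both ICC283 drought libraries, against 189 and 204 CPM in the well-watered ones. It fell by 0.82 ± 0.15 on the log2 scale (adjusted p = 0.00234), and the call held without each of the 8 libraries in turn. The libraries in conflict did not follow either label: 72.9 CPM in the one tabled as drought and 105 CPM in the one tabled as well-watered, both below all 4 agreed libraries. With them included under the table's labels, the groups overlapped and the difference was -0.74 ± 0.25 (adjusted p = 0.0345).

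CDPK1, the other calcium-dependent kinase gene, measured 75.4 and 73.5 CPM in ICC283 drought libraries, against 75.8 CPM in both well-watered libraries. The log2 difference of -0.05 ± 0.11 did not pass (adjusted p = 0.767), and its 95% interval ran from -0.30 to 0.20. A change of the size of that of CDPK2 lies outside this interval. The library tabled as drought had 65.4 CPM and the one tabled as well-watered had 72.7 CPM, both below the 4 agreed libraries.

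Of the 14-3-3 pair, '1433' fell furthest. It measured 74.6 and 81.5 CPM in ICC283 drought libraries, against 174 and 177 CPM in well-watered libraries, a log2 difference of -1.19 ± 0.13 (adjusted p = 0.000188) that held without each of the 8 libraries. The library tabled as drought had 105 CPM and the one tabled as well-watered had 182 CPM, each nearer to the group of its table label. The gene written '14-3-3' measured 125 and 144 CPM under drought, against 179 and 181 CPM in well-watered ICC283, and the groups did not overlap. Its fall of 0.44 ± 0.14 on the log2 scale (adjusted p = 0.0336) was close to the threshold. It was lost without drought library 1 (0.212) or 2 (0.0632), without well-watered library 1 (0.0824) or 2 (0.0913), and without ICC8261 well-watered library 2 (0.0551) or 3 (0.0528), which enter through the shared estimate of the spread. The 2 libraries in conflict had 125 CPM where tabled as drought and 201 CPM where tabled as well-watered.

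In the 8 agreed libraries, the share of read pairs set aside as not uniquely aligned was higher under drought in both genotypes. It was 53.4% and 53.5% in ICC283 drought libraries, against 50.6% and 48.1% in well-watered libraries, and 52.8% and 50.5% in ICC8261 drought libraries, against 46.7% and 44.1%. In the libraries in conflict it was 50.5% where tabled as drought and 48.5% where tabled as well-watered in ICC283, and 49.3% and 50.01% in ICC8261, and with them drought and well-watered overlapped under either set of labels in ICC283 and under the table's labels in ICC8261. The share of read pairs in no annotated feature ran the other way, at 16.6% and 16.9% in ICC283 drought libraries, against 19.3% and 20.1% in well-watered ones, and at 18.2% and 16.9% in ICC8261 drought libraries, against 20.0% and 21.0%. In the libraries in conflict that share was 19.0% where tabled as drought and 21.4% where tabled as well-watered in ICC283, and 19.0% and 17.9% in ICC8261. The part of these shares in the differences was not tested.

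Drought in ICC8261 gave 1 call among the 5 genes, and it was again '1433'. Of all genes tested, 15.5% were called in this comparison, 6.37% lower and 9.09% higher. The median log2 fold change of the 5 was -0.08, against -0.01 over all genes tested.

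'1433' measured 103 and 98.8 CPM in ICC8261 drought libraries 1 and 3, against 162 and 137 CPM in well-watered libraries 2 and 3. The groups did not overlap, and '1433' fell by 0.56 ± 0.13 on the log2 scale (adjusted p = 0.0176). The library tabled as drought had 95.6 CPM and the one tabled as well-watered had 147 CPM, so all 3 drought libraries of the table lay below all 3 well-watered ones. Among the fits that leave out a library, the call was lost without well-watered library 2 (adjusted p = 0.152) or drought library 1 (0.0711).

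For the gene written '14-3-3', ICC8261 drought libraries had 122 and 150 CPM and well-watered libraries had 150 and 171 CPM. The drought libraries were the lower ones by a margin under 1 CPM, and the difference of -0.23 ± 0.14 did not pass (adjusted p = 0.286, 95% interval -0.55 to 0.08). The library tabled as drought had 111 CPM and the one tabled as well-watered had 172 CPM, so the table's labels keep the groups apart by that same margin and the count-file labels make them overlap. CAM measured 165 and 193 CPM under drought, against 196 and 183 CPM in well-watered libraries. Those groups overlapped, with a difference of -0.07 ± 0.13 (adjusted p = 0.739, 95% interval -0.38 to 0.23). Of the libraries in conflict, the one tabled as drought had 147 CPM of CAM, below all 4, and the one tabled as well-watered had 193 CPM.

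The 2 kinase genes did not pass either. CDPK2 measured 119 and 109 CPM in ICC8261 drought libraries, against 133 and 100 CPM in well-watered ones, which enclose them. Its difference was -0.03 ± 0.15 (adjusted p = 0.922, 95% interval -0.35 to 0.30). The library tabled as drought had 142 CPM and the one tabled as well-watered 94.0 CPM, and with them the sign turned, to 0.17 ± 0.25. CDPK1 measured 62.9 and 60.4 CPM under drought, against 63.2 and 67.9 CPM in well-watered ICC8261, a difference of -0.08 ± 0.11 (adjusted p = 0.669). Among the libraries in conflict, 61.8 CPM stood under the drought label of the table and 75.4 CPM under its well-watered label.

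**Figure D2:**
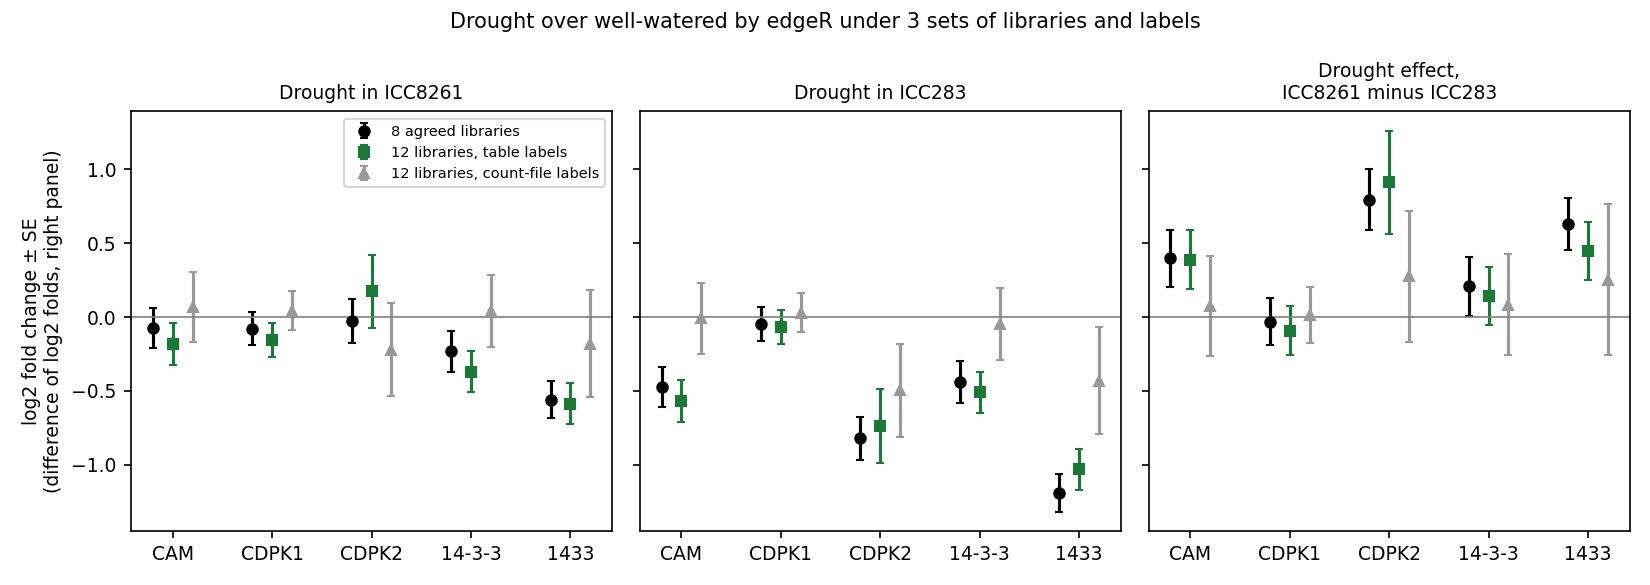
Log2 fold change ± SE of each gene, drought over well-watered, in ICC8261 (left) and ICC283 (middle), and the drought effect of ICC8261 minus that of ICC283 (right), from edgeR. Black circles use the 8 agreed libraries, green squares all 12 under the DESeq2 table's labels and grey triangles all 12 under the count-file labels. Black and green lie close together for '1433' in both genotypes (-1.19 and -1.03 in ICC283), while its grey values are nearer to 0.

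The choice of labels decided the calls. In the 8 agreed libraries, 38.2% of all genes tested were called under drought in ICC283 and 15.5% in ICC8261. With the table's labels on all 12 libraries, the same 4 genes were called lower in ICC283 and '1433' was called lower in ICC8261, where 36.8% (20.1% lower, 16.6% higher) and 18.7% (8.83% lower, 9.84% higher) of all genes were called. With the count-file labels, edgeR called none of the 5 in either genotype, none had an unadjusted p below 0.05, and 0 of 18592 genes were called under drought in either genotype. At an unadjusted p below 0.05 those labels left 386 genes in ICC8261 and 1841 in ICC283. DESeq2 was run on the 8 agreed libraries only, where it called the same number of members lower, 1 in ICC8261 and 4 in ICC283. Of 24357 genes it called 1097 lower and 1320 higher in ICC8261, and 3250 lower and 2294 higher in ICC283.

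Whether the response differed between the genotypes was tested as the drought effect in ICC8261 minus that in ICC283. Of the 5 genes 2 were called, CDPK2 and '1433', both with the larger fall in ICC283. Of all genes tested, 12.6% were called, 7.88% with the higher effect in ICC8261 and 4.68% with the lower. The median over all genes was itself 0.12 on the log2 scale, against 0.40 for the 5.

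The effect on CDPK2 was -0.03 in ICC8261 and -0.82 in ICC283, a difference of 0.79 ± 0.21 (adjusted p = 0.0359). That on '1433' was -0.56 in ICC8261 and -1.19 in ICC283, a difference of 0.63 ± 0.18 (adjusted p = 0.0466). Neither call was firm. That of '1433' was lost without any 1 of the 8 libraries (adjusted p between 0.0758 and 0.194), with the other 2 scalings (0.0586 and 0.0709) and with DESeq2 (0.0705). That of CDPK2 was lost without ICC283 well-watered library 1 (0.0545) or 2 (0.0731), ICC283 drought library 1 (0.131) or 2 (0.103), ICC8261 well-watered library 3 (0.135) or ICC8261 drought library 1 (0.0794), and with upper-quartile scaling (0.0520). Under the table's labels both differences kept their sign, at 0.91 ± 0.35 for CDPK2 (adjusted p = 0.172) and 0.44 ± 0.20 for '1433' (adjusted p = 0.228), and neither was called, where 2.58% of all genes were.

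The other 3 genes showed no called difference in response. CAM differed by 0.40 ± 0.19 (adjusted p = 0.200, 95% interval -0.03 to 0.82) although it was called in ICC283 and not in ICC8261. The gene written '14-3-3' differed by 0.21 ± 0.20 (adjusted p = 0.536, 95% interval -0.24 to 0.65), so a difference between genotypes was not shown for it. CDPK1 differed by -0.03 ± 0.16 (adjusted p = 0.925, 95% interval -0.39 to 0.32).

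**Figure D3:**
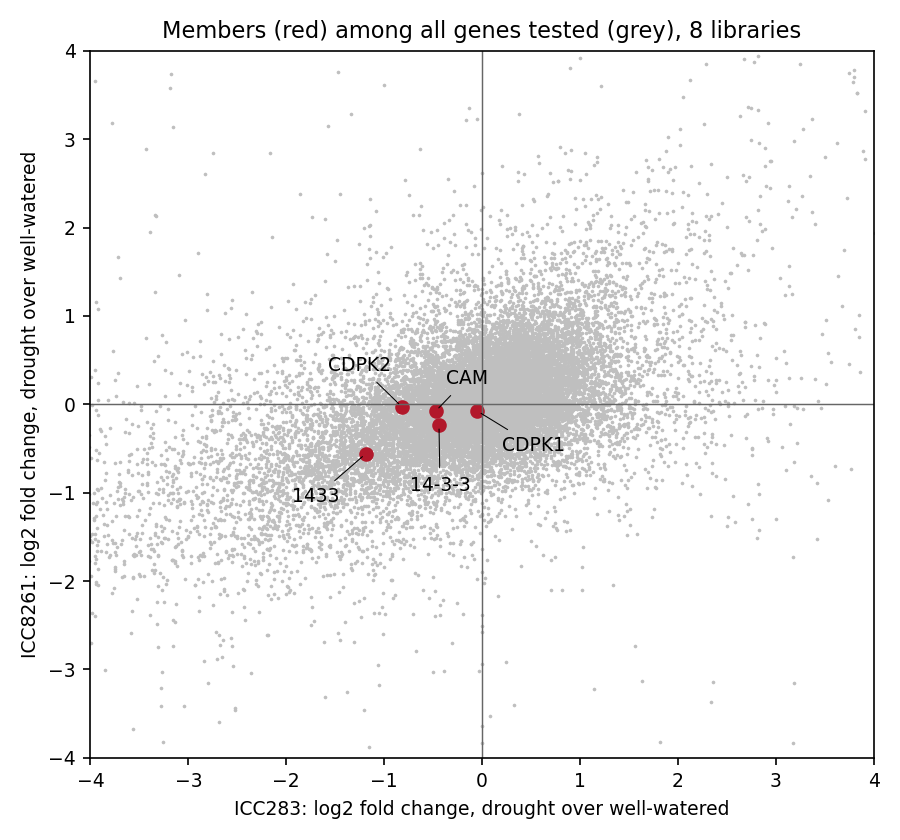
Log2 fold change under drought in ICC283 (horizontal) and in ICC8261 (vertical) for all genes tested in the 8 agreed libraries (grey) and the 5 genes (red). Axes stop at 4 in each direction, which leaves 428 of 18750 genes beyond them. All 5 red points have both values below 0, with '1433' lowest on both axes and CDPK2 far to the left but near 0 on the vertical axis.

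Set against each other within a treatment, the genotypes differed in 1 of the 5 genes. In well-watered plants CDPK2 averaged 117 ± 22.9 CPM in ICC8261, against 197 ± 10.7 CPM in ICC283 (SD, n = 2 each), a log2 difference of -0.79 ± 0.15 (adjusted p = 0.00523). Among all genes tested, 26.6% were called, 15.3% lower and 11.3% higher in ICC8261. The call was lost without ICC8261 well-watered library 3 (-0.55, adjusted p = 0.0539) and under the table's labels (-0.61 ± 0.25, adjusted p = 0.120), where ICC283 gained a library of 105 CPM and 12.7% of all genes were called. CAM averaged 190 ± 9.02 CPM in well-watered ICC8261 and 226 ± 21.0 CPM in ICC283, the gene written '14-3-3' averaged 161 ± 14.8 CPM and 180 ± 1.28 CPM, and '1433' averaged 149 ± 17.7 CPM and 176 ± 2.44 CPM. These 3 had adjusted p of 0.138, 0.312 and 0.135.

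Under drought the genotypes were close for CDPK2, at 114 ± 6.86 CPM in ICC8261 and 113 ± 0.552 CPM in ICC283, a log2 difference of 0.00 ± 0.15 with a 95% interval of -0.33 to 0.33. The gene written '14-3-3' averaged 136 ± 19.3 CPM in ICC8261 and 135 ± 12.8 CPM in ICC283, and CAM 179 ± 19.6 CPM and 165 ± 14.4 CPM. Of the 5 genes edgeR called none under drought, while it called 18.9% of all genes tested. DESeq2 called none of the 5 either, while it called 1769 of 24357 genes higher in ICC8261 and 1067 lower. At an unadjusted p below 0.05 edgeR had 2 of the 5, '1433' and CDPK1, against 6540 of 18750 genes tested, so that count is near the share over all genes. '1433' averaged 101 ± 2.67 CPM in ICC8261 and 78.0 ± 4.93 CPM in ICC283, a difference of 0.36 ± 0.13 (adjusted p = 0.0747).

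For CDPK1 neither the treatments nor the genotypes were called different. Its ICC8261 libraries had 60.4 to 67.9 CPM and its ICC283 libraries 73.5 to 75.8 CPM, without overlap in the 8 agreed libraries. Within each genotype the drought libraries were also the lower ones, by margins under 1 CPM. The log2 difference was -0.28 ± 0.11 under drought (adjusted p = 0.112) and -0.25 ± 0.11 in well-watered plants (adjusted p = 0.129). Of the 4 libraries in conflict, whose genotype is not in question, 1 of ICC8261 had 75.4 CPM and 1 of ICC283 had 65.4 CPM, each within the agreed range of the other genotype.

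**Figure D4:**
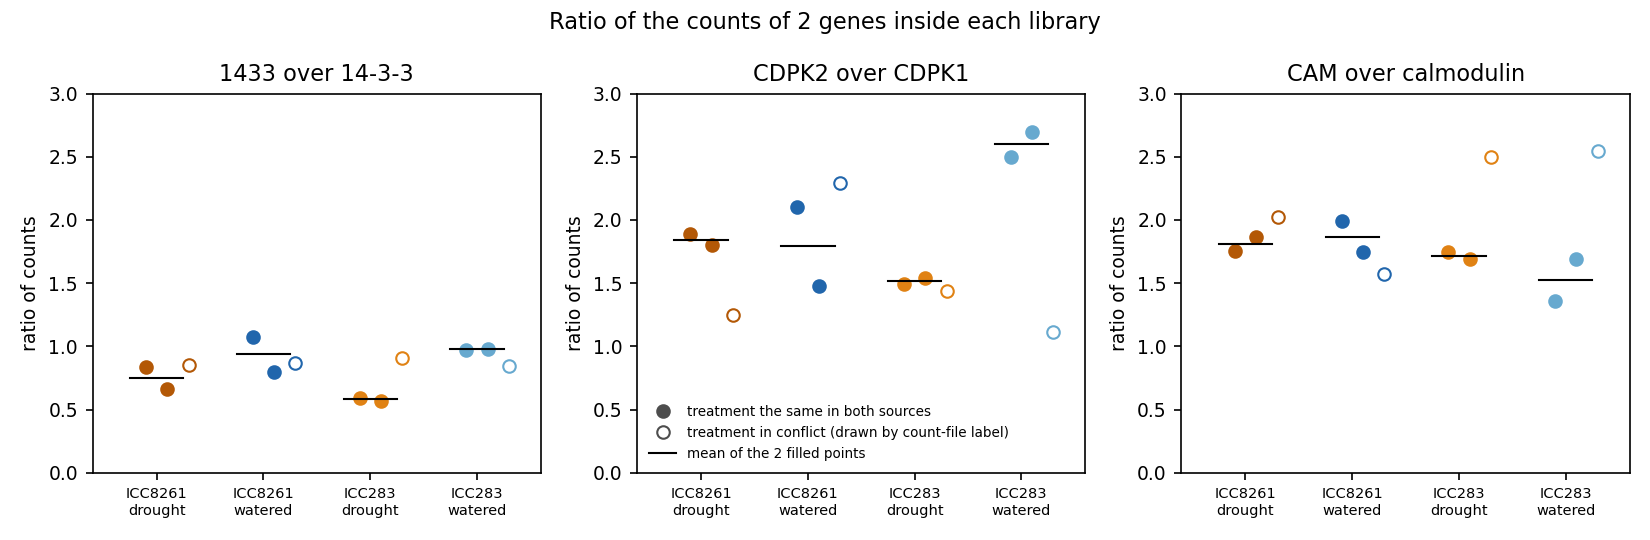
Ratio of the read counts of 2 genes inside each library (vertical axes, 0 to 3), by group along the horizontal axes, with the same symbols as in the plot of levels. The ratio of '1433' to 14-3-3 in ICC283 drought libraries (0.594 and 0.568) lay below every other library, and that of CDPK2 to CDPK1 in well-watered ICC283 (2.50 and 2.70) above every other.

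Ratios inside a library do not depend on the scaling of libraries, and they describe how unequally paired genes moved. They say nothing of which transcript is more abundant, since gene lengths differ. The count of '1433' over that of 14-3-3 was 0.594 and 0.568 in ICC283 drought libraries, against 0.971 and 0.980 in well-watered ones. In ICC8261 it was 0.839 and 0.661 under drought and 1.08 and 0.799 in well-watered libraries, which overlap. The 4 libraries in conflict had 0.841 to 0.907, close together whichever label they carried. The count of CDPK2 over that of CDPK1 was 1.49 and 1.54 in ICC283 drought libraries, against 2.50 and 2.70 in well-watered ones. In ICC8261 it was 1.89 and 1.80 under drought, inside the range of 2.102 and 1.48 in well-watered libraries. In the libraries in conflict it was 1.11 where tabled as drought and 1.44 where tabled as well-watered in ICC283, both below the 4 agreed libraries, and 2.29 and 1.25 in ICC8261, above and below the 4 agreed ones.

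Further genes of the pathway were taken by symbol. The list of calcium sensors and kinases matched 5 genes, the 3 above and 2 that RefSeq gives as synonyms, calmodulin (also CaM1) and CACIPK6, a CBL-interacting protein kinase, a family regulated by calcineurin B-like calcium sensors. In ICC283, 3 of the 5 fell under drought and none was called higher, where 21.1% of all genes tested fell and 17.1% rose. In ICC8261 edgeR called none of the 5 in either direction, where it called 15.5% of all genes. None of the 5 had an unadjusted p below 0.05 by edgeR, against 6050 of 18750 genes. DESeq2 also called none of the 5 there, where it called 1320 of 24357 genes higher and 1097 lower. The calmodulin gene averaged 96.3 ± 10.7 CPM in ICC283 under drought and 149 ± 9.27 CPM in well-watered ICC283 (SD, n = 2 each), a log2 difference of -0.65 ± 0.13 (adjusted p = 0.00390). That call was lost without ICC283 drought library 1 (0.0502). In ICC8261 it averaged 98.7 ± 6.47 CPM under drought and 102 ± 4.58 CPM in well-watered plants, and its response differed between the genotypes by 0.61 ± 0.18 without passing (adjusted p = 0.0551).

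Over the 12 libraries the log2 CPM of the calmodulin gene had a Pearson's r of 0.83 with CDPK2 and 0.64 with CAM, and over the 8 agreed ones 0.87 and 0.85. Its well-watered mean was lower in ICC8261 than in ICC283 (-0.58 ± 0.13, adjusted p = 0.0104), as for CDPK2. That call was lost without ICC283 well-watered library 1 (0.0619), ICC8261 well-watered library 2 (0.109) or 3 (0.0593), and under the table's labels (0.0993). Of the libraries in conflict, the one filed as ICC283 well-watered 3 held its lowest level, 63.7 CPM, and the lowest of CDPK2 as well. CAM had 162 CPM in that library, so the ratio of CAM to calmodulin counts was 2.55 there and 2.496 in the library filed as ICC283 drought 3, against 1.36 to 1.99 in the 8 agreed libraries.

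CACIPK6 was higher in ICC8261 than in ICC283 in both treatments. It averaged 181 ± 41.6 CPM in ICC8261 and 109 ± 1.98 CPM in ICC283 under drought, and 165 ± 5.52 CPM in ICC8261 and 91.6 ± 1.77 CPM in ICC283 when well-watered. The genotype difference was 0.73 ± 0.15 under drought (adjusted p = 0.0116) and 0.81 ± 0.15 well-watered (adjusted p = 0.00532). The first was lost without ICC283 drought library 1 (0.0963) or 2 (0.0643), the second held without each library, and neither was called under the table's labels (0.112 and 0.0550). Drought itself gave 0.14 ± 0.15 in ICC8261 and 0.23 ± 0.15 in ICC283, and neither passed (adjusted p = 0.545 and 0.256). Both ICC283 libraries in conflict had 144 CPM of CACIPK6, above the 4 agreed ICC283 libraries, and those of ICC8261 had 155 and 175 CPM.

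**Figure D5:**
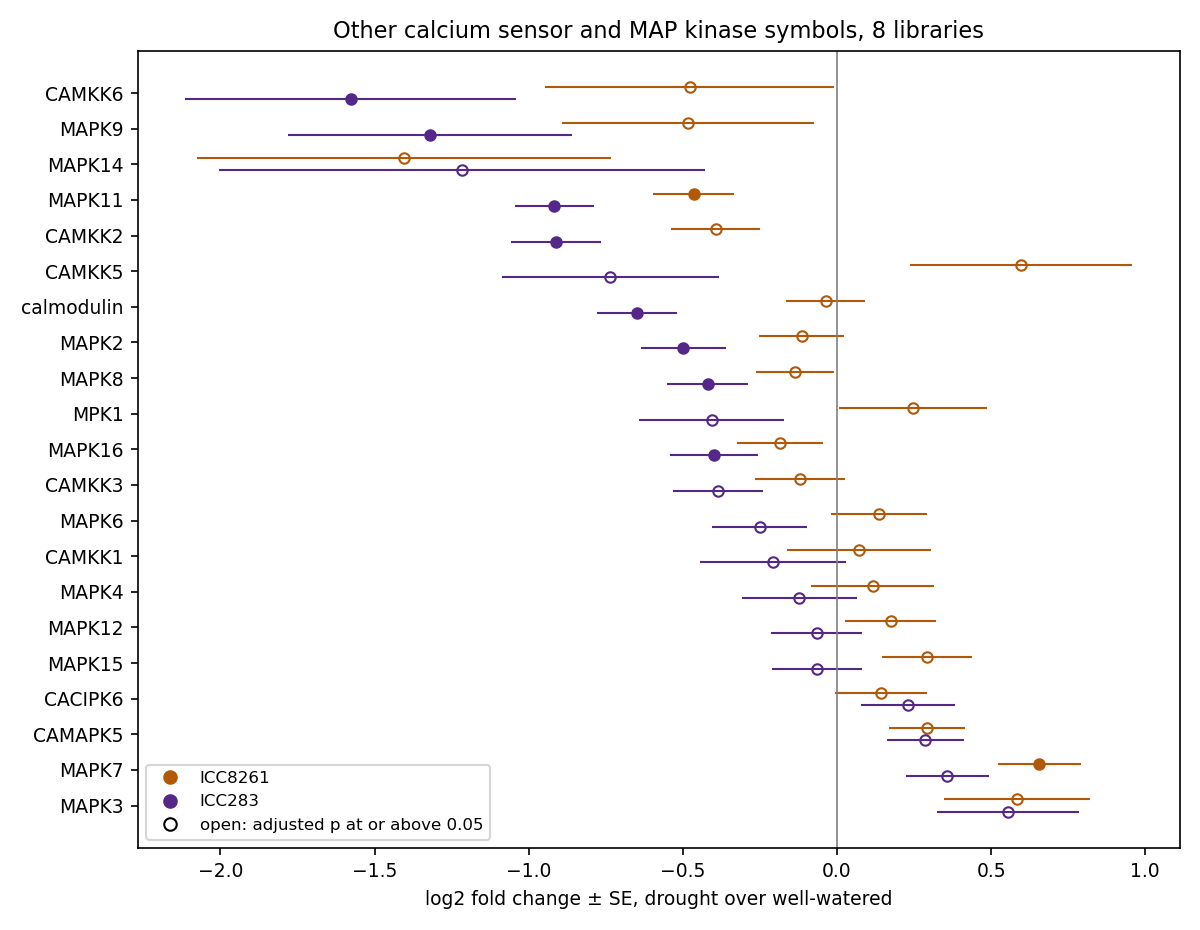
Log2 fold change ± SE, drought over well-watered, in ICC8261 (orange) and ICC283 (purple) for the other calcium sensor and the MAP kinase symbols tested in the 8 agreed libraries. Filled points passed an adjusted p of 0.05. Of the 19 MAP kinase cascade symbols, 7 are filled below 0 in ICC283, and in ICC8261 MAPK11 is filled below 0 and MAPK7 above it.

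MAP kinases, which relay stress signals by phosphorylation in parallel with calcium signalling, formed the other list with matches. Of 21 symbols, 19 were tested. The list includes 6 symbols written CAMKK, 5 of them tested, whose place in this cascade is not given in the sources used here. In ICC283, 7 of the 19 fell and none was called higher, with a median of -0.40, where 21.1% of all genes fell, 17.1% rose and the median was -0.03. CAMKK2 and CAMKK6 are among the 7. In ICC8261, 1 fell and 1 rose, with a median of 0.07, where 6.37% of all genes fell and 9.09% rose, so the count there is near the share over all genes. No symbol of this list was called different in response between the genotypes, where 12.6% of all genes were called. By edgeR 3 of the 19 had an unadjusted p below 0.05, against 5465 of 18750 genes tested, so that count is no excess. DESeq2, which tested all 21 symbols, called 3 lower and none higher in ICC283. There it called 3250 of 24357 genes lower and 2294 higher, so the count of lower symbols is near the share over all genes. In ICC8261 it called 1 higher and none lower, beside 1320 genes higher and 1097 lower. For the difference it called none, beside 1237 genes higher and 711 lower. With the table's labels edgeR called 4 of the 19 lower and 3 higher in ICC283, where 20.1% of all genes fell and 16.6% rose. Those counts are near the shares over all genes, so the excess of lower symbols in the 8 libraries was not seen with these labels. In ICC8261 the same labels gave 2 higher and none lower, where 9.84% of all genes rose and 8.83% fell.

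MAPK11 averaged 34.6 ± 0.391 CPM in ICC283 under drought and 64.4 ± 3.35 CPM in well-watered ICC283, a log2 difference of -0.92 ± 0.13 (adjusted p = 0.000697). In ICC8261 it averaged 27.1 ± 2.79 CPM and 37.7 ± 0.872 CPM, with -0.47 ± 0.13 (adjusted p = 0.0399). That second call was lost in 5 of 8 fits that leave out a library, where the log2 difference in ICC8261 ran from -0.58 to -0.35 over the 8. The 5 were without ICC8261 drought library 1, ICC8261 well-watered library 2 or 3, and ICC283 drought library 1 or 2. It was also lost with DESeq2 and under the table's labels. CAMKK2, a symbol whose role is not given in the sources used here, averaged 24.7 ± 3.14 CPM in ICC283 under drought and 45.8 ± 2.50 CPM in well-watered ICC283, with -0.91 ± 0.15 (adjusted p = 0.00131). In ICC8261 it averaged 27.3 ± 0.208 CPM under drought and 36.1 ± 3.76 CPM in well-watered plants. That difference of -0.39 ± 0.14 did not pass (adjusted p = 0.0946). MAPK2 fell by 0.50 ± 0.14 in ICC283 (adjusted p = 0.0189), a call lost without well-watered library 1 (0.0935) or drought library 2 (0.121), with DESeq2 (0.0919) and under the table's labels (0.136). MAPK7 was the 1 that rose in ICC8261, to 40.1 ± 0.193 CPM under drought, against 25.6 ± 2.86 CPM in well-watered plants (0.66 ± 0.14, adjusted p = 0.0129). That call was lost without ICC8261 well-watered library 2 or drought library 1, and without single libraries the log2 difference ran from 0.54 to 0.75. In ICC283 MAPK7 averaged 43.1 ± 4.30 CPM under drought and 33.2 ± 0.795 CPM in well-watered plants. The difference there, 0.36 ± 0.14, had the same sign and did not pass (adjusted p = 0.0619).

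Over all 12 libraries, which needs no treatment label, the 5 genes fell into patterns that were described by Pearson's r of log2 CPM. These values are descriptions over 12 libraries that share depth and scaling, and carry no test. CAM and 14-3-3 moved together most closely (r = 0.91), CAM and '1433' had r = 0.82, and 14-3-3 and '1433' had r = 0.81. CDPK2 stood apart from these 3, with r = 0.31 to CAM, 0.24 to 14-3-3 and 0.38 to '1433', and its r of 0.83 to the calmodulin gene came with a rank correlation of 0.38. In the 8 agreed libraries alone, r between CDPK2 and CAM was 0.80, and between CDPK2 and '1433' it was 0.72. CDPK1 had r of 0.25 to 0.56 with the other 4.

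Among 289 tested genes with a symbol other than a LOC identifier, the 3 most like each gene were taken by the same r. For CAM they were 14-3-3 (0.91), ALDC (0.89) and '1433' (0.82). For 14-3-3 they were ALDC (0.93), CAM (0.91) and IF4A (0.86). For '1433' they were UGT85K8 (0.93), CAMKK2 (0.91) and INR134 (0.91). For CDPK2 they were WRKY40 (0.94), NAC43 (0.93) and CARERF1 (0.92), with 2 genes of any name above WRKY40. For CDPK1 they were NAC30 (0.86), CYP81E5 (0.77) and trnK-UUU (0.75). The ranking holds among the named genes alone. Of all 18592 genes, named or not, 30 had a higher r with CAM than its first match, 9 with 14-3-3, 186 with '1433' and 23 with CDPK1.

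The authors' deposited DESeq2 table for ICC283, under its own labels of the libraries in conflict, lists log2 fold changes of -1.03 for '1433', -0.72 for CDPK2, -0.58 for CAM, -0.52 for 14-3-3 and -0.08 for CDPK1. The DESeq2 adjusted p given there were, in that order, 8.9e-07, 0.0457, 0.00665, 0.00611 and 0.756. In the authors' deposited DESeq2 table for ICC8261 the log2 fold changes are -0.57 for '1433', -0.17 for CAM, -0.15 for CDPK1 and 0.18 for CDPK2. Their DESeq2 adjusted p were 0.000169, 0.403, 0.494 and 0.490. The gene written '14-3-3' appears in that table under a calendar date, a common result of opening gene names in a spreadsheet, and was identified by its reads, with a log2 fold change of -0.35 and an adjusted p of 0.0632. A search of the authors' deposited table by name would miss it.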

How the data were processed

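Leaf RNA of 12 chickpea libraries was analysed. The authors deposited whole-number counts per gene, made with HTSeq after Trimmomatic and TopHat2 2.1.1, per the submitters' processing notes, which also name Cufflinks 2.0.2. Genome build and annotation, and whether strand was used, were not given in the sources used here. DESeq2 and edgeR tables were also deposited by the authors, with log2 fold changes, p-values, a Wald score and normalized signal per library; whole reads were recovered from that signal and matched to the count files (tolerance 0.02), which showed the 4 exchanged treatments.

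Counts were tested with edgeR 4.0.16 (limma 3.58.1, R 4.3.3): filterByExpr defaults, TMM, robust quasi-likelihood fit of 4 group means over 8 libraries, Benjamini-Hochberg adjustment over 18750 genes and a threshold of 0.05. Rows that name no gene took 65.3% to 71.2% of each library's read pairs and stayed out. CPM used TMM over 12 libraries, and r a prior count of 2. Symbols came from RefSeq (24445 of 27234 identifiers matched). Alternatives were both label sets on 12 libraries, RLE and upper-quartile scaling, no filter, DESeq2 1.42.0, a replicate block and leaving out each library. The members and lists were chosen with earlier results of these data known. Named genes were every member, every calcium sensor gene, up to 3 called genes per other list and direction with groups not overlapping, and the 3 most alike per member. The lists of calcium transport, 14-3-3 partners and abscisic acid signalling matched 0 symbols, and the seed storage gene LEG had 0 to 2 reads per library. Scripts were tested on simulated data.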

Additional observations from a re-analysis of the deposited data

Results flagged for a closer look

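The drought effect of '1433' differed between the genotypes by 0.63 on the log2 scale, and that of CDPK2 by 0.79. Each was called by the edgeR test of the difference itself, which is what set them apart. Neither call was firm, with adjusted p of 0.0466 and 0.0359, and neither gene was called under the table's labels. Without single libraries the differences ran from 0.47 to 0.72 for '1433' and from 0.56 to 0.98 for CDPK2. '1433' fell in both genotypes, by 0.56 in ICC8261 and by 1.19 in ICC283, while CDPK2 gave -0.03 in ICC8261 and -0.82 in ICC283. For CDPK2 the difference lies in the well-watered libraries, at 117 ± 22.9 CPM in ICC8261 and 197 ± 10.7 CPM in ICC283 (SD, n = 2 each), since under drought the genotypes had 114 ± 6.86 CPM and 113 ± 0.552 CPM. The 2 ICC283 libraries with conflicting treatment had 72.9 and 105 CPM of CDPK2, so neither source adds a well-watered library near 197 CPM.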

How the results depend on the processing

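Of 645 values of single genes recomputed under 15 alternatives (43 results), 539 kept direction and side of the threshold, 74 lost their call, 2 gained one and 30 changed sign. The number of the 5 genes called was 1 under drought in ICC8261, 4 in ICC283, 2 for the difference in response, 0 for genotype under drought and 1 for genotype well-watered. It became 0 in every one of these under count-file labels, 0 with the table's labels for the difference and for genotype well-watered, and for the difference 1 with RLE, 0 with upper-quartile scaling and 1 with DESeq2. Leaving out single libraries gave 0 to 1, 2 to 4, 0 to 1, 0 to 0 and 0 to 1. All genes called numbered 2898, 7167, 2355, 3551 and 4992, against 0, 0, 0, 113 and 98 under count-file labels, 479, 1913 and 2359 in the last 3 with the table's labels, and, without single libraries, 455 to 3294, 3961 to 7539, 540 to 2307, 862 to 3793 and 1434 to 5594.

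Of 7 pairs of same-numbered libraries, 5 deviated together (r from 0.13 to 0.31) and the others had r of 0.02 and -0.14. Since not every pair exceeded 0.1, and the labels tie the numbers to nothing shared, the numbers were not taken to pair the libraries. With 2 libraries per group the deviations mirror each other, so this check is weak. For the same reason, pairs 1 and 2 of ICC283 well-watered and drought libraries hold the same r (0.14) and are not separate values. With the replicate block, 0 of the 5 genes were called in ICC8261 ('1433': -0.50, adjusted p = 0.0509), and all genes called there numbered 1800, and 3182 for genotype well-watered.

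Signs that changed belonged to values that were not called. In ICC8261 they were, under count-file labels, CAM 0.066, CDPK1 0.044 and 14-3-3 0.038. With the block they were CAM 0.028 and CDPK2 0.040, and with the table's labels CDPK2 0.17 and MAPK2 0.093. Leaving out libraries, CAM ran from -0.20 to 0.043, CDPK2 from -0.24 to 0.18, calmodulin from -0.11 to 0.039 and CACIPK6 from -0.099 to 0.35. Under count-file labels CDPK1 was 0.029 in ICC283, and the differences in response were CDPK1 0.014 and CACIPK6 0.0027, the second running from -0.33 to 0.099 without single libraries. For genotype under drought, the count-file labels gave CAM -0.15, CDPK2 -0.040, 14-3-3 -0.082 and calmodulin -0.056, the table's labels 14-3-3 -0.043, and the block 14-3-3 -0.092 and calmodulin -0.018. Without single libraries CAM ran from -0.0015 to 0.22, CDPK2 from -0.053 to 0.070, 14-3-3 from -0.14 to 0.15 and calmodulin from -0.084 to 0.14. The cause was not tested. With 2 libraries per group, standard errors of 0.11 to 0.21 limit what can be seen.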
